A study of Mus musculus with 16 samples.

Results

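The genes described here are 9 genes of vitamin A (retinoid) handling and response, measured in mouse liver. They are Rbp4, Lrat, Retsat, Dhrs3, Aldh1a1, Aldh1a7, Cyp26a1, Rarb and Rarres1. Each was found by its symbol in the annotation of the array, where 1 transcript cluster (the set of probes that reports 1 locus) carried that symbol alone. They make up 9 of the 18820 genes with such a cluster, and 9 of 9 were above an intensity of 20 (log2 4.32) on 16 of 16 arrays and were among the 14275 genes tested. Cyp26a1 and Rarres1 were chosen by their measured diet patterns on these same arrays, so their values across diets are given as a description without a test. The others were listed for their place in the pathway, but with earlier results of these data known.

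Liver RNA came from 16 male C57BL/6J mice, with 1 array per mouse, and the mice were killed at 12 months of age after a diet that began at 9 weeks. The diets included a control diet fed ad libitum (C), 30% calorie restriction in daily portions (CR) and a medium-fat diet (MF) fed ad libitum. Fat gave 25% of the energy of MF. An intermittent diet (INT) switched each week between MF ad libitum and 40% calorie restriction. The published account of this mouse experiment states that INT mice were killed in a week of MF feeding. It also states that CR portions were given each afternoon and that mice were killed in the afternoon. Time since the last meal may thus differ between CR and the other diets, and its part was not tested. All mice were fasted for 4 h and then gavaged, 6 h before death. They received the solvent carboxymethyl cellulose (mock) or 160 mg/kg of Wy-14,643 (Wy), an agonist of the nuclear receptor PPARα. By the published account they were fasted again over those 6 h. Mock and Wy mice were matched for body weight within a diet, which gave each diet a heavy pair (high body weight) and a light pair (low body weight), 8 pairs in all, and these mice were taken from the extremes of body weight in their diet group.

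An array is called by its weight class, its diet and its treatment, as in high CR Wy. The values are log2 intensities, array medians lay between 5.53 and 5.59, and correlations between arrays lay between 0.968 and 0.995. The high INT mock and high INT Wy arrays carried another plate code than the other 14. The defining genes of hepatocytes were present: 9 of 10 listed hepatocyte markers were tested and their mean level lay between 12.5 and 12.8 log2 on every array. Markers of stellate cells, the fat-storing cells that hold most of the liver's vitamin A, were also present, with 14 of 15 tested. Of 6 listed fat-cell markers 3 were tested, Plin1, Retn and Car3, each above the intensity limit on 16 arrays. The fat-cell hormone genes Adipoq and Lep were above it on 0 and 2 arrays.

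Vitamin A reaches the liver with chylomicron remnants, is stored as retinyl esters and leaves as retinol bound to RBP4. Inside cells retinol is oxidised to retinal and then to retinoic acid, which binds the receptors RAR and RXR at paired DNA hexamers and is cleared by CYP26 enzymes. Cyp26a1 and Rarb are themselves well-known targets of retinoic acid, and PPARα shares the partner RXR with RAR.

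The sequences shown first are matches to the letters of a retinoic acid response element in the promoter windows of Rarb and Cyp26a1, because both genes had their highest levels on the same arrays, those of CR with Wy. A direct repeat of the hexamers AGGTCA or GGGTCA, or else AGTTCA or GGTTCA, with 5 bases between the copies (DR5) was searched on both strands of the RefSeq windows that run from 250 bases before to 50 bases after a gene start (GRCm38.p6). It was found in 32 of 32851 windows (0.0974%), and 2 of the 13 windows of the 9 genes held it. The hexamers are in capitals:
Rarb, chr14:16575513-16575529, 53 to 37 bases before the window's start site, on the strand of the gene: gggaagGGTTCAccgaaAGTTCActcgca
Cyp26a1, chr19:37697776-37697792, 32 to 16 bases before the window's start site, on the opposite strand to the gene: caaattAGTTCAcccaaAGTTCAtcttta
Both matches lie inside the gene's full RefSeq record (16430839 to 17082331 for Rarb, 37697738 to 37701536 for Cyp26a1), since each window is set at a start site within it. The second hexamer is the same in both. The same hexamers with 1 base between them (DR1, 0.222% of windows) or 2 bases (DR2, 0.268%), which differ from DR5 in the spacing alone, were in 0 of the 13 windows. With shares this low, 0 of 13 would be found in most sets of windows, so it tells nothing about the spacing. Of 31 genes with a DR5 match 6 were tested. In Rarb and Cyp26a1 the Wy minus mock difference of both CR pairs lay above that of all other pairs. In Blvrb, Ppbp, Prss27 and Tnfsf13b it did not. Over all tested genes, 6.93% had this pattern. Rarb and Cyp26a1 were searched because of their levels on the CR Wy arrays. Their pattern was thus known beforehand, and no link between the match and the pattern was tested. A match of letters is a description and not a measured binding site.

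A second sequence is shown because Aldh1a1 and Aldh1a7 are close copies of one gene on chromosome 19. One of the windows of Aldh1a1 (chr19:20601874-20601938, plus strand) and that of Aldh1a7 (chr19:20727586-20727650, minus strand) share a run of 65 bases, 94 to 30 bases before the window's start site in both. For Aldh1a1 that site lies inside its RefSeq record (20492583 to 20643463), and for Aldh1a7 the run lies just before the record (20692953 to 20727556):
Aldh1a1 and Aldh1a7: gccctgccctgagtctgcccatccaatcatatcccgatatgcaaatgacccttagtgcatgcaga
The transcripts are alike too, so part of the signal of either probe set may come from the other gene, and values of this pair carry that uncertainty.

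**Figure D1:**
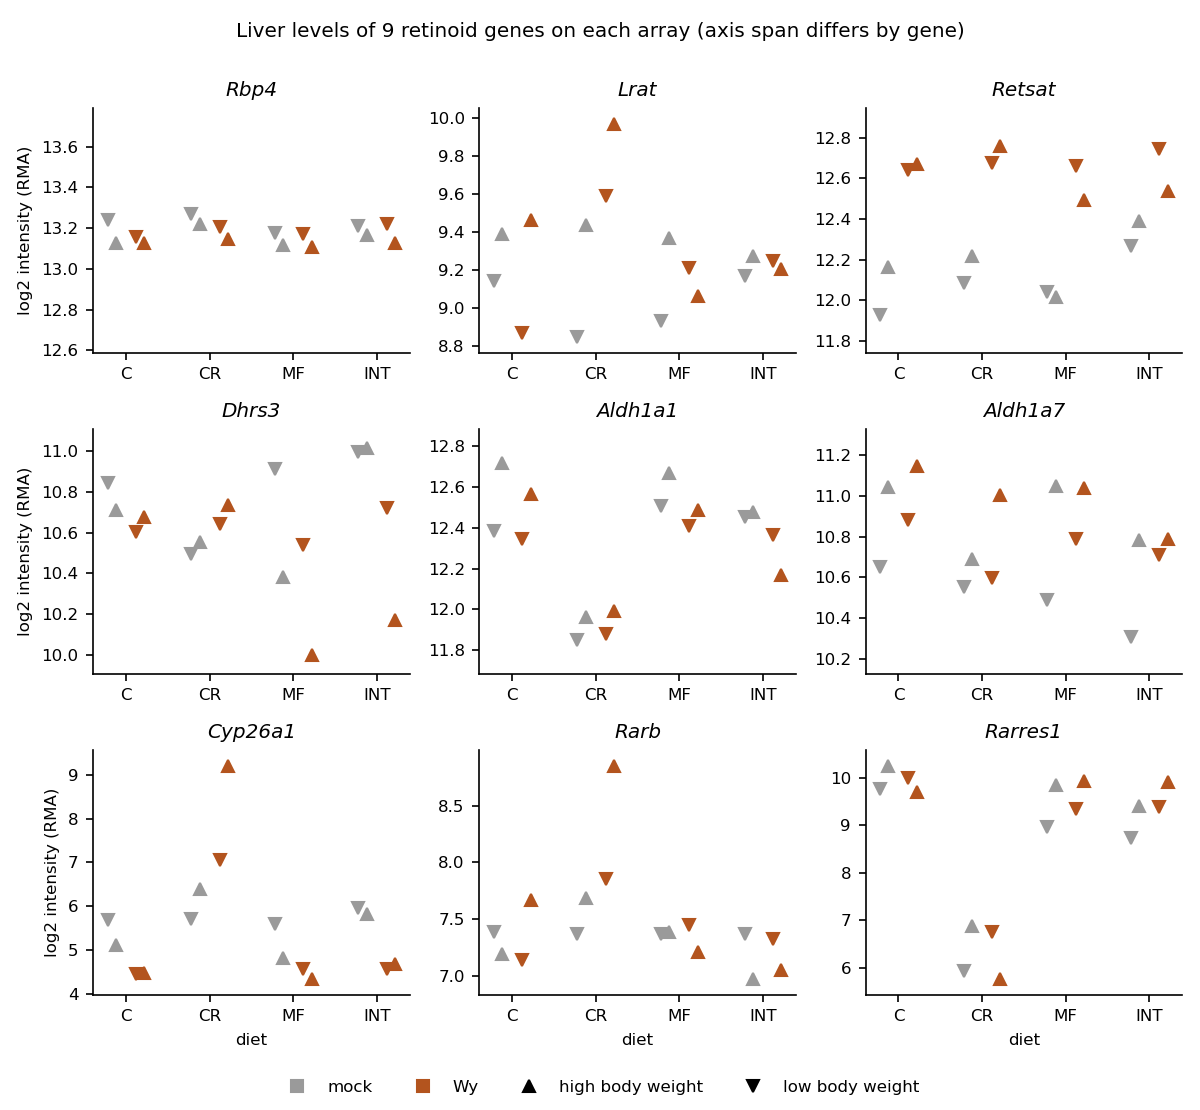
Log2 intensity (RMA) of the 9 genes on each of the 16 arrays, by diet, with grey for mock, orange for Wy, and triangles pointing up or down for high or low body weight. Each point is 1 mouse and the axis span differs by gene. Cyp26a1 reached 9.19 on the high CR Wy array and lay between 4.35 and 4.68 on the 6 Wy arrays of other diets, and Rarres1 lay between 5.77 and 6.89 on the 4 CR arrays.

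The first comparison asks which of these genes differed in Wy livers over all 8 pairs. Retsat rose, Aldh1a7 rose slightly, and the other 7 did not pass the test. Across all genes tested with limma, 28.3% passed at an adjusted p under 0.05, 12.3% higher and 16% lower, so 2 of 9 is a share near that background.

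Retsat encodes retinol saturase, an enzyme that turns retinol into dihydroretinol. On mock arrays its level was 12.17, 12.22, 12.02 and 12.39 at high body weight (C, CR, MF and INT) and 11.93, 12.08, 12.04 and 12.27 at low body weight. On Wy arrays it was 12.67, 12.76, 12.49 and 12.54 at high and 12.64, 12.68, 12.66 and 12.74 at low body weight. The lowest Wy array (12.49) lay above the highest mock array (12.39), a separation that 2.78% of all tested genes showed in this direction. The rise was 1.42-fold (log2 change 0.51 ± 0.06, SE of the fitted model, n = 8 pairs, limma adjusted p = 8.61e-05) and was seen in 8 of 8 pairs, as for 8.82% of all tested genes. The smallest difference, 0.15, was that of the high INT pair, whose arrays had the other plate code, and the remaining 7 pairs lay between 0.48 and 0.71.

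Aldh1a7, an aldehyde dehydrogenase of the retinal dehydrogenase family found in rodents, was higher with Wy in 7 of 8 pairs. The pair differences ran from -0.01 to 0.40 log2, and the fitted change was 0.17 ± 0.06 (SE, n = 8 pairs, limma adjusted p = 0.0415). The mock arrays (10.31 to 11.05) and the Wy arrays (10.60 to 11.15) overlapped. Of 22 alternative settings, 10 lost this call (adjusted p up to 0.104), each leaving out 1 array of either C pair, the high CR pair, the low MF pair or the low INT pair.

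Dhrs3, a reductase that returns retinal to retinol, had a fitted Wy change of -0.23 ± 0.10 (adjusted p = 0.118), and Aldh1a1, the main retinal dehydrogenase of this list, one of -0.10 ± 0.05 (adjusted p = 0.15). Both were lower with Wy in 6 of 8 pairs, and the pairs that were not lower were the CR pairs. Rarb stood at 0.23 ± 0.14, Lrat at 0.13 ± 0.11, Rarres1 at 0.13 ± 0.19, Rbp4 at -0.03 ± 0.04 and Cyp26a1 at -0.22 ± 0.42, with limma adjusted p between 0.247 and 0.751. Rbp4, the carrier of retinol in blood, moved least of the 9, with pair differences from -0.09 to 0.01. Its level lay between 13.11 and 13.27 over the 16 arrays, near the highest value measured (13.75). Differences may be understated at such levels, which was not tested.

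The second comparison asks whether the Wy difference depended on diet. In 5 of the 9 genes both CR pairs lay above all 6 pairs of the other diets, a pattern that 6.93% of all tested genes showed in this direction. One of the 5 is Cyp26a1, which was picked for a diet pattern, and 4 of the other 8 genes had it as well. These were Rarb, Lrat, Dhrs3 and Aldh1a1. Among 89 further genes of the retinoid pathway, described below, 6 had it (6.74%). Members and lists were chosen with earlier results of these data known, so these counts are a description.

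Cyp26a1, the enzyme that breaks down retinoic acid, set the widest range. At C its level was 5.12 and 5.68 in mock and 4.49 and 4.45 in Wy livers (high and low body weight). At MF it was 4.81 and 5.60 in mock and 4.35 and 4.58 in Wy livers, and at INT 5.83 and 5.95 in mock and 4.68 and 4.57 in Wy livers. At CR it was 6.39 and 5.70 in mock but 9.19 and 7.05 in Wy livers. The 6 Wy arrays outside CR thus lay below the 6 mock arrays outside CR, just above the intensity limit, while both CR Wy arrays lay above all other arrays. In pair differences these were -1.38 to -0.46 log2 outside CR against 2.80 and 1.35 in CR.

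Rarb encodes the retinoic acid receptor beta. In CR its level went from 7.68 in mock to 8.85 in Wy at high body weight and from 7.36 to 7.85 at low body weight. Outside CR the mock arrays lay between 6.97 and 7.39 and the Wy arrays between 7.05 and 7.67. The CR differences of 1.17 and 0.49 compare with -0.24 to 0.47 in the other pairs, so the low CR pair lay only just above the high C pair.

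Lrat makes retinyl esters and marks stellate cells in the liver. Its CR pairs went from 9.44 to 9.97 and from 8.85 to 9.59, differences of 0.53 and 0.74, against -0.31 to 0.28 elsewhere. In bulk liver, fewer cells of a type and less RNA per cell cannot be told apart. Over the 14 tested stellate markers the mean Wy minus mock difference was -0.10 in the high CR pair and 0.20 in the low CR pair, against -0.09 to 0.04 in the others, and its part in the Lrat values was not tested. With Wy, Lrat was higher and the stellate mean lower in the high CR pair, and both were higher in the low CR pair.

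Dhrs3 is a gene that retinoic acid is known to raise. It differed by 0.18 and 0.15 between Wy and mock in the CR pairs and by -0.84 to -0.04 in the other 6. Its lowest levels were those of the high MF Wy array (10.00) and the high INT Wy array (10.17), while the CR arrays lay between 10.50 and 10.74. Aldh1a1 differed by 0.03 in each CR pair and by -0.31 to -0.04 in the others. For Dhrs3 and Aldh1a1 the lowest difference was that of the high INT pair, whose arrays had the other plate code. Like Cyp26a1, both had CR pairs above 0 and the 6 other pairs below 0, as did 1.07% of all tested genes.

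None of these diet differences passed a test. The interaction of Wy with diet (limma, pair as a block) called 0 of 14275 genes (0%), although 669 had an unadjusted p under 0.05. Dhrs3, Lrat and Rarb were among those 669, and the limma adjusted p of each was 0.997. With 2 pairs per diet and 4 residual degrees of freedom before moderation, a miss here does not show that the Wy difference was alike on all diets. The interaction of Wy with body weight class called 0 genes too (673 at unadjusted p under 0.05), with adjusted p = 0.999 for every member.

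**Figure D2:**
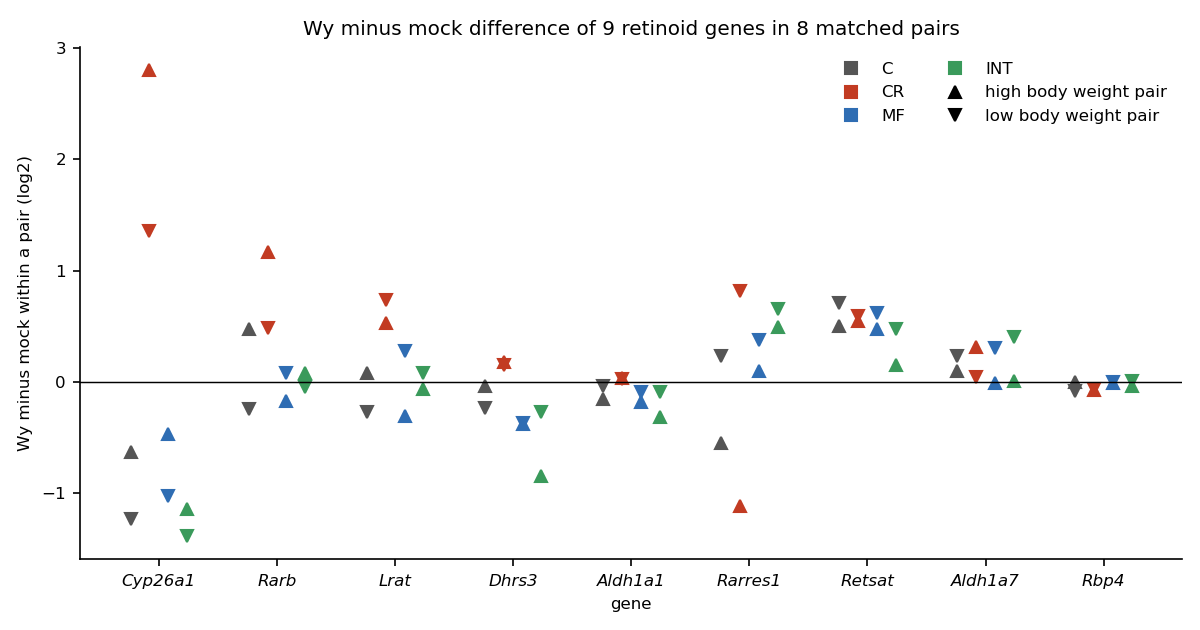
Wy minus mock difference in log2 intensity within each of the 8 matched pairs for the 9 genes, coloured by diet, with triangles pointing up for the pair of high and down for the pair of low body weight. For Cyp26a1, Rarb, Lrat, Dhrs3 and Aldh1a1 both red CR points lie above the 6 other points, and for Retsat all 8 points lie above 0, from 0.15 to 0.71.

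The third set of comparisons asks how diet changed these genes, in a model that also held treatment and weight class. Aldh1a1 fell in CR livers, Rarres1 stood far lower in them, and no member passed between MF or INT and C. CR against C called 10.5% of all tested genes, MF against C 0% and INT against C 0.00701%. Of the 7 members open to a test, 1 was called in CR.

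Aldh1a1 had a level of 11.96, 11.99, 11.85 and 11.88 on the 4 CR arrays and of 12.72, 12.56, 12.38 and 12.35 on the 4 C arrays (high mock, high Wy, low mock, low Wy). MF arrays lay between 12.41 and 12.67 and INT arrays between 12.17 and 12.48. All 4 CR arrays thus lay below the 12 others, as did 2.06% of all tested genes. The fall from C to CR was 1.50-fold (log2 change -0.58 ± 0.08, SE, n = 4 arrays per diet, limma adjusted p = 0.000622) and was seen in 4 of 4 matched comparisons, from -0.76 to -0.47. With the mock arrays alone or the Wy arrays alone, 2 against 2, the call was lost (adjusted p up to 0.132). Between INT and CR, which uses the same CR arrays and called 9.85% of all genes, the difference was 0.45 ± 0.08 (limma adjusted p = 0.00336).

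Aldh1a7, its close copy, was lower in CR than in C in 4 of 4 comparisons, from -0.36 to -0.10, without passing (-0.22 ± 0.08, limma adjusted p = 0.082). Its CR arrays lay between 10.55 and 11.00 and overlapped those of C (10.65 to 11.15). Whether the 2 genes differed in this change was not tested. From C to INT it differed by -0.28 ± 0.08, lower in 4 of 4 comparisons, without passing (adjusted p = 0.275).

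Rarres1, named for its response to the retinoid tazarotene, is reported as a description. Its level was 6.89, 5.77, 5.93 and 6.75 on the CR arrays and 10.24, 9.69, 9.77 and 10.00 on the C arrays, in the same order as above. MF arrays lay between 8.95 and 9.93 and INT arrays between 8.74 and 9.90, so the CR arrays lay below all others here too. With Wy, its high CR pair differed by -1.11 and its low CR pair by 0.82, the widest spread within a diet for this gene.

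The low Rarres1 and Aldh1a1 levels in CR came with a change of sex-biased liver genes. Of 11 tested male-biased genes 11 fell from C to CR, with a mean level of 7.62 to 9.09 on CR arrays against 10.6 to 11.5 on C arrays, and of 6 tested female-biased genes 6 rose. Mean levels of the 14 stellate markers were 7.72 to 7.97 on CR arrays and 7.98 to 8.07 on C arrays, with 1 of 14 called lower (Pdgfrb, -0.41 ± 0.12, limma adjusted p = 0.0389, lost in 10 of 24 settings). Their part in the values of the retinoid genes was not tested.

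Rarb stood 0.59 ± 0.22 higher in CR than in C without passing (adjusted p = 0.112). The comparisons behind it were 1.18 and 0.71 in Wy livers but 0.49 and -0.02 in mock livers. From CR to INT it fell by 0.76 on the log2 scale (SE 0.22, limma adjusted p = 0.0473), a call lost in 19 of 24 alternative settings (adjusted p up to 0.446). Cyp26a1, given as a description, was 1.28 (high) and 0.02 (low) above C in mock CR livers and 4.71 and 2.61 above C in Wy CR livers. Both genes thus stood furthest from C where CR and Wy came together.

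Retsat, Rbp4, Lrat and Dhrs3 showed changes from C to CR of 0.08, 0.05, 0.24 and -0.10, with limma adjusted p from 0.369 to 0.743. For MF against C the members' log2 changes lay between -0.41 and 0.01 and for INT against C between -0.57 and 0.33, with Rarres1 lowest in each. At an unadjusted p under 0.05, MF against C had 628 genes.

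The fourth comparison asks how the genes differed between mice of high and low body weight. Aldh1a7 was higher at high body weight in 8 of 8 comparisons within diet and treatment, by 0.07 to 0.56 log2, as 0.897% of all tested genes were. At high body weight its level was 11.05 (mock) and 11.15 (Wy) in C, 10.69 and 11.00 in CR, 11.05 and 11.04 in MF and 10.78 and 10.79 in INT. At low body weight it was 10.65 and 10.88 in C, 10.55 and 10.60 in CR, 10.49 and 10.79 in MF and 10.31 and 10.71 in INT. The classes overlapped when diets were pooled, since low C Wy lay above high CR mock.

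Over all diets the difference was 0.32 ± 0.05 (SE, 8 against 8 arrays, unadjusted p = 3.5e-05), which did not pass (limma adjusted p = 0.146), and 0 of 14275 genes did (0%), against 2000 at an unadjusted p under 0.05. Within C and MF, where 7.39% of all genes passed, it rose 1.29-fold (log2 change 0.37 ± 0.08, 4 against 4 arrays, limma adjusted p = 0.0223), a call lost in 6 of 21 settings. Within CR and INT it was 0.27 ± 0.08 (adjusted p = 0.968), with 0 genes called and 679 at an unadjusted p under 0.05. The difference between these 2 values was 0.09 ± 0.11 (adjusted p = 0.79), so they were not shown to differ. In C and MF, 4 of 6 tested markers of activated stellate cells rose too, among them Timp1 (1.08 ± 0.10) and Col1a1 (0.55 ± 0.07), with mean levels of 6.35 to 6.91 at high and 5.89 to 6.08 at low body weight, and sex-biased genes moved as well. Of 11 tested male-biased genes 3 fell, with mean levels of 9.64 to 10.8 at high and 11.0 to 11.5 at low body weight, and of 6 tested female-biased genes 2 rose, with 6.55 to 7.76 against 5.75 to 5.96. The part of either set in the Aldh1a7 value was not tested.

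Rbp4 was lower at high body weight in 8 of 8 comparisons, as were 1.21% of all tested genes, but by 0.03 to 0.11 log2 only in size. Its levels lay near the top of the measured range, as given above. Its fitted difference was -0.06 ± 0.03 (limma adjusted p = 0.41). Lrat differed by 0.27 ± 0.11, higher in 6 of 8 comparisons (adjusted p = 0.303), and Aldh1a1 by 0.20 ± 0.07 within C and MF (adjusted p = 0.104). For the remaining members the smallest adjusted p over the body weight comparisons was 0.261 (Dhrs3 in C and MF).

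**Figure D3:**
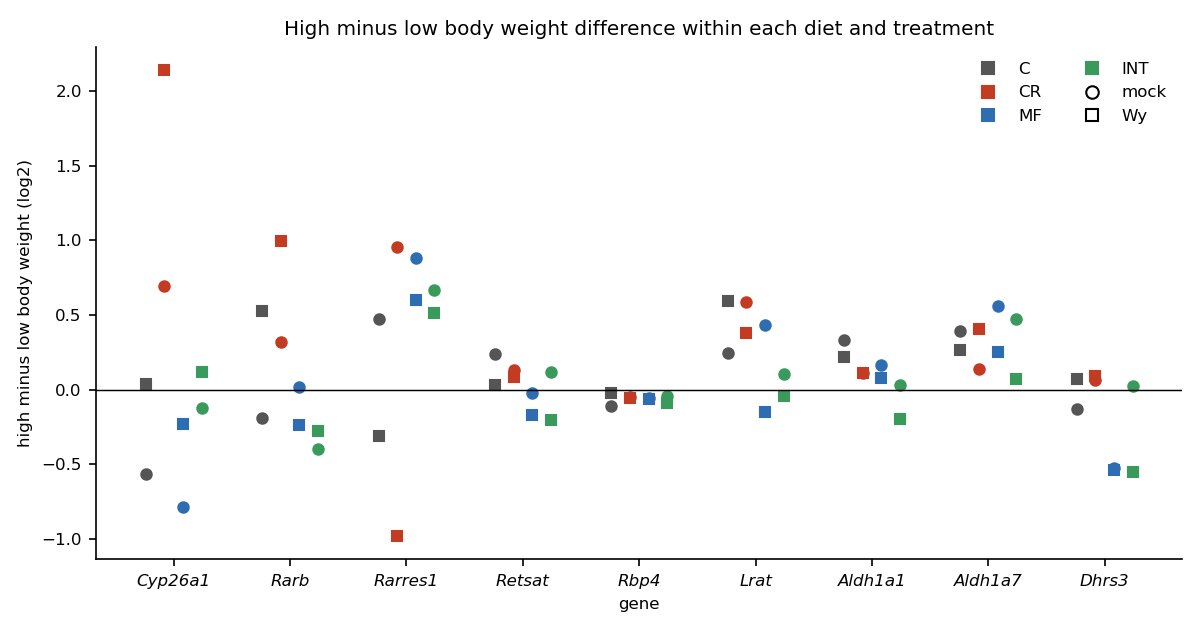
High minus low body weight difference in log2 intensity within each diet (colours) and treatment (circles mock, squares Wy) for the 9 genes, 8 points per gene. For Aldh1a7 all 8 points lie above 0, from 0.07 to 0.56, for Rbp4 all 8 lie just below 0, and Cyp26a1 spans -0.79 to 2.14.

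The rest of the pathway was followed in 8 lists with 110 further genes, of which 97 were measured and 89 tested. With Wy, 18 rose and 20 fell (42.7% of those tested, against 28.3% of all genes), with a median log2 change of -0.01, like that of all genes. From C to CR 9 rose and 9 fell (20.2% against 10.5%), and from CR to INT 13 rose and 12 fell (28.1% against 9.85%). MF and INT against C called 0 of the 89. The lists were drawn up with earlier results of these data known, so their shares are a description.

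Of 11 tested genes for retinol carriers and uptake 2 rose and 3 fell with Wy. Cd36, a scavenger receptor for lipids, rose by 0.82 ± 0.13 (8 of 8 pairs, limma adjusted p = 0.000655) and Rbp2, a cellular retinol-binding protein, by 0.22 ± 0.07 (6 of 8 pairs), a call lost in 13 of 22 settings. Stra6l, which encodes a receptor for the RBP4 of blood in the liver, fell by 0.47 in 8 of 8 pairs (SE 0.08), and Scarb1, a receptor for high-density lipoprotein, fell by 0.21. The ligand Rbp4 itself was at -0.03 in the same fit.

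Of 16 genes for the synthesis and hydrolysis of retinyl esters 4 rose and 2 fell with Wy. Pnpla2, the adipose triglyceride lipase, rose by 0.95 ± 0.07 and Mgll, the monoglyceride lipase, by 0.81 ± 0.08, each in 8 of 8 pairs. The carboxylesterases Ces1b (-0.41 ± 0.11) and Ces1g (-0.35 ± 0.10) fell, the latter a call lost in 7 of 22 settings. These lipases act mainly on other lipids, and Lrat, the dedicated enzyme of ester synthesis, did not pass.

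Of 21 retinol and retinal dehydrogenases and reductases 5 rose and 4 fell. Adh7, an alcohol dehydrogenase active on retinol, rose by 0.81 ± 0.05 (8 of 8 pairs, limma adjusted p = 3.05e-06) and the retinol dehydrogenase Rdh16 by 0.40 ± 0.07 (7 of 8). Adh4 fell by 0.45 (SE 0.07) and Rdh5 fell by 0.37 (SE 0.06), in 8 of 8 pairs each. The enzymes of 1 chemical step thus went both ways.

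Among 6 tested genes listed for retinoic acid synthesis from retinal, 2 fell and 0 rose. These were Aox3 (-0.41 ± 0.10) and Aldh1b1 (-0.37 ± 0.10), in 7 of 8 pairs each. Aldh1a7, an aldehyde dehydrogenase like Aldh1b1, rose slightly, as given above. Among 7 enzymes of breakdown and conjugation, 3 fell and 0 rose, with Cyp3a13 at -0.39 ± 0.07 and Cyp2c39, a retinoic acid hydroxylase, at -0.39 ± 0.10. Of the 2 tested carotenoid-cleaving enzymes, Bco2, which cuts carotenoids off centre, fell 1.97-fold (-0.98 ± 0.08, 8 of 8 pairs, limma adjusted p = 1.13e-05), the deepest of the falls named for Wy.

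Among 12 receptors and coregulators 4 rose and 4 fell. The receptor gene Rxrg rose by 0.72 ± 0.06 and the corepressor Nrip1 by 0.71 ± 0.07, while the receptor gene Rara fell by 0.45 (SE 0.05) and Pml, fused to it in promyelocytic leukaemia, fell by 0.42, all in 8 of 8 pairs. Of 14 tested genes known to answer retinoic acid 3 rose and 1 fell, with the transglutaminase Tgm2 at 0.87 ± 0.08, Rai14 at 0.67 ± 0.07 and Cebpe at -0.76 ± 0.11. In the CR pairs Tgm2 differed by 0.88 and 0.72, within the 0.54 to 1.20 of the other pairs. Cebpe differed by -0.55 and -0.03 in the CR pairs and by -1.30 to -0.69 in the others, so it and Tlr2, named after its values were seen, were the 2 of the 14 with both CR pairs above the rest.

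From C to CR, 5 of the 21 dehydrogenases and reductases rose and 0 fell, led by Rdh11, a retinal reductase (1.16 ± 0.20, limma adjusted p = 0.00257), and Hsd17b6 (1.01 ± 0.21). Cyp2c39 rose by 1.17 ± 0.14 and Cyp26c1, a relative of Cyp26a1, by 0.36 ± 0.08, while the glucuronosyltransferase Ugt2b1 fell by 0.59. Rara fell by 0.33 and Rxrg fell by 0.34, and so did the response genes Nav2 (-0.41) and Rai14 (-0.39). Among genes listed for ester enzymes the lipase gene Pnpla3 rose 2.99-fold (1.58 ± 0.26) and Ces1b by 0.72. In the same list Mgll (-0.57) and the hormone-sensitive lipase Lipe (-0.55) fell. On the mock arrays alone, 2 against 2, each call named in this comparison was lost, and those for Lipe, Rxrg and Rai14 were lost in 6, 9 and 7 of 24 settings.

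From CR to INT, a comparison that shares the CR arrays, Pnpla3 fell by 2.06, Cyp2c39 fell by 1.83, Rdh11 fell by 1.40 and Aldh1b1 fell by 1.02, while Aox3 rose by 0.71, Adh4 by 0.68, Mgll by 0.63 and Rara by 0.27. The Rara call was lost in 10 of 24 settings and that of Aox3 in 3.

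At high body weight in C and MF, 5 of the 89 genes rose and 4 fell (10.1%, against 7.39% of all genes). Cd36 rose by 1.40 ± 0.18, Tgm2 by 0.71 ± 0.12 and Aldh1b1 by 0.66 ± 0.14 (lost in 5 of 21 settings), while Rdh16f2, a relative of Rdh16, fell by 1.04 (SE 0.11, limma adjusted p = 0.00121). Aldh1b1 and Aldh1a7, both aldehyde dehydrogenases, were each higher in 4 of 4 comparisons there.

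**Figure D4:**
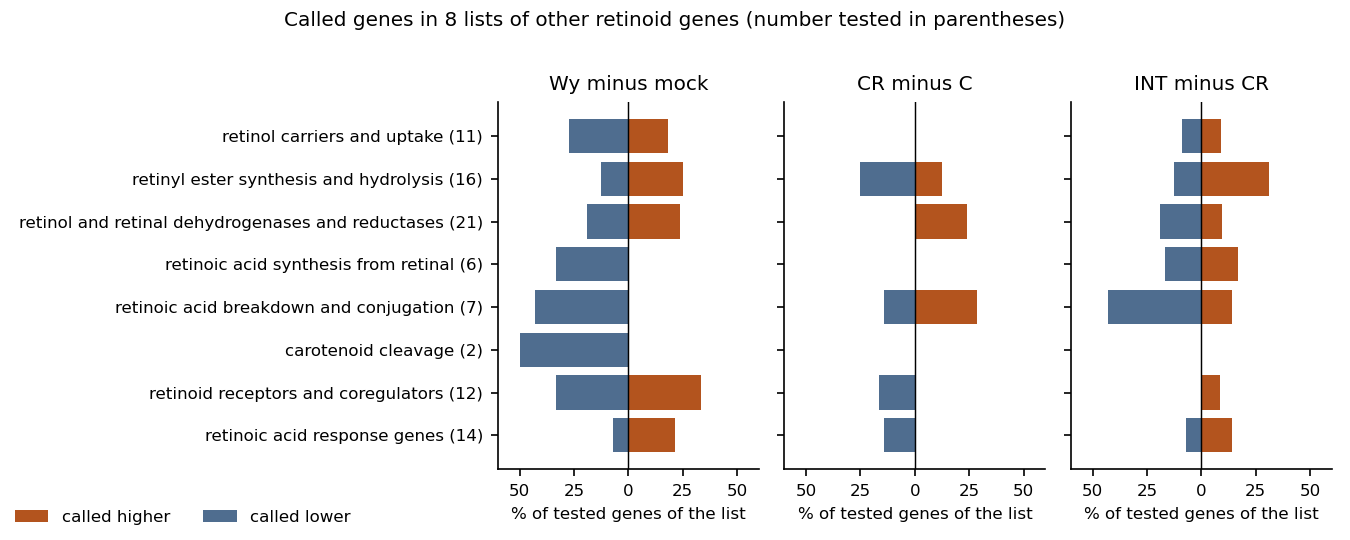
Share of tested genes called higher (orange, to the right) or lower (blue, to the left) in 8 lists of further retinoid genes, as a percent of each list, for Wy minus mock, CR minus C and INT minus CR (limma, adjusted p under 0.05). With Wy the receptors and coregulators split into 4 higher and 4 lower of 12, and from C to CR the dehydrogenases and reductases have 5 higher and 0 lower of 21.

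Genes with a pattern like that of Cyp26a1 and Rarres1 were found by the correlation of log2 levels over the 16 arrays, given as a description, since the arrays share their diet groups. For Cyp26a1 the 5 nearest were Vegfd (r = 0.88), Olfr20 (0.87), Cnot7 (0.85), Pir (0.85) and Lbr (0.84). Without the 4 CR arrays r was 0.56, 0.25, 0.76, 0.24 and 0.86, so Cnot7 and Lbr kept most of the likeness on the other diets. For Rarres1 they were Tlr12 (0.94), Scp2 (0.93), Slc15a5 (0.92), Cyp4a12a (0.92) and Cyp4a12b (0.92), with r between -0.35 and 0.38 without CR. Cyp26a1 and Rarb had r = 0.82 over 16 arrays and -0.14 over the 12 outside CR.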

How the data were processed

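RNA of 16 livers had been hybridised to Affymetrix Mouse Gene 1.1 ST arrays. The deposited values are log2 intensities that the authors made by RMA (robust multi-array averaging), a procedure of background correction, quantile equalisation between arrays and summary of probes per transcript cluster. The version of its software was not given in the sources used. Equalising the arrays removes any change shared by most genes. Of 35556 clusters, 21218 matched 1 gene, 1881 several and 12457 were not in the annotation. The cluster with the highest mean stood for each of 18820 genes, and genes over an intensity of 20 on at least 5 arrays were tested (14275).

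Fits used limma 3.58.1 in R 4.3.3, with Benjamini-Hochberg adjustment over all tested genes. The Wy model held the matched pair as a block, the diet model held treatment and weight class, and the body weight model held diet and treatment. Body weight within C and MF or within CR and INT used separate terms per diet. The pairing comes from the labels, which match mock and Wy mice by body weight within a diet. High minus low differences of mock and Wy livers correlated across genes by 0.531 in C, 0.564 in MF, 0.0839 in INT and -0.169 in CR. Named list genes are up to 2 called genes with the smallest p in each direction. The fits were tested on simulated data. The members and gene lists were chosen with earlier results of these data known. The number of arrays limits the precision.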

Additional observations from a re-analysis of the deposited data

Results flagged for a closer look

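Of 54 sets of pair or matched differences over the 9 genes, 1 held a value far from the rest by Dixon's criterion, which chance meets in about 1 in 20 sets. It was the Wy minus mock difference of Retsat in the high INT pair, 0.15 log2, against 0.48 in the nearest pair. The arrays of this pair were the 2 with another plate code, and their part in the value was not tested.

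In 3 genes both CR pairs lay above 0 for Wy minus mock and the 6 other pairs below 0, as in 1.07% of all tested genes. Cyp26a1 averaged 2.08 in the CR pairs and -0.98 in the others, a gap of 3.06 log2, and since it was picked for its diet pattern the gap is a description. Dhrs3 averaged 0.16 and -0.36, a gap of 0.52, and Aldh1a1 averaged 0.03 and -0.14, a gap of 0.18, with both of its CR values just above 0. For these last 2 the limma interaction of Wy with diet gave an adjusted p of 0.997 each, and this contrast of CR with all other diets was not itself tested. In both genes the lowest difference was that of the high INT pair, and the part of its plate code was not tested.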

How the results depend on the processing

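Alternatives were no filter on low values, centring each array on its median, a trended and robust limma fit, the first plate alone, the mean of a gene's clusters, fits with and without a replicate block, mock arrays alone and each array left out. Wy arrays alone were added after the data were seen. For the members and the list genes named by rule, 4251 value and setting combinations were computed, and 3913 stayed on their side of the threshold, 334 lost a call, 4 gained one and 0 called values reversed. Among the 3913, 92 uncalled values changed sign. Leaving out 1 array gave 1 to 2 called members for Wy, 1 to 1 for CR minus C, 1 to 2 for INT minus CR, 0 to 1 for body weight over all diets and 0 to 1 for body weight in C and MF, and 0 to 0 in the other 6 comparisons. Aldh1a7 passed over all diets in body weight without low CR mock. It lost its body weight call in C and MF without any one of the C mock and C Wy mice of either class or the MF mock mice (adjusted p up to 0.11). For INT minus CR, 1 member in place of 2 was called without the filter, with the trended fit, on the first plate and with the replicate block of treatment and body weight class, each time Aldh1a1 without Rarb. On mock arrays alone or on Wy arrays alone 0 were called for it, and 0 for CR minus C, where 2 arrays stand for a diet. The trended fit called 2 members for body weight in C and MF, Aldh1a1 and Aldh1a7. Without the pair as a replicate block Wy called the same 2 members, Retsat and Aldh1a7, and the block changed no other count. The body weight comparison within CR and INT could not be fitted on the first plate, which lacks INT mice of high body weight.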
